A study of Mus musculus with 6 samples.

Results

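The integrated stress response and the unfolded protein response were examined in C2C12 cells, a mouse myoblast line, through 40 genes of the 19938 genes with a probe set that names a single gene. The genes were chosen by name, as sensors of stress, transcription factors and their feedback, amino acid genes controlled by the transcription factor ATF4, and folding and degradation genes of the endoplasmic reticulum (ER). All 40 had a single-gene probe set, and the brightest one (highest mean over the 6 arrays) stood for each gene. No filter on low values was applied.

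The silenced line carried a lentiviral short hairpin RNA against PARP2 (shPARP2 C2C12 cells, 3 samples), and the control line a scrambled hairpin (scPARP2 C2C12 cells, 3 samples). PARP2 is a nuclear enzyme that adds poly(ADP-ribose) to proteins at DNA breaks. Both lines went through lentiviral delivery and puromycin selection and grew in the same high-glucose medium with calf serum, with no stress agent added. Each condition is 1 transduced line, so an effect of the hairpin on Parp2 and other ways in which the lines differ cannot be told apart. No label tells if the 3 samples per line were grown separately. The p-values here set a difference only against the spread among these samples, which limma moderates over all probe sets. That spread may be technical. RNA was hybridized to Affymetrix Mouse Gene 1.0 ST arrays, 1 array per sample, and the deposited values are log2 signals.

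In the integrated stress response, kinases that sense haem, ER, amino acid or viral stress phosphorylate the translation factor eIF2, which lowers general protein synthesis while ATF4 mRNA is translated more. ATF4 then switches on genes for amino acid synthesis and uptake, together with ATF3, CHOP and a phosphatase subunit that reverses the phosphorylation. In the unfolded protein response, PERK, IRE1 and ATF6 in the ER membrane detect unfolded proteins, and XBP1 and cleaved ATF6 switch on chaperones and the machinery that degrades misfolded proteins. Much of the control of these pathways lies in phosphorylation, splicing, cleavage and translation, which an mRNA array does not measure.

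Parp2 itself had log2 values of 7.86, 8.14 and 7.91 on the shPARP2 arrays, against 8.94, 9.13 and 9.05 on the scPARP2 arrays. The groups did not overlap, and the shPARP2 signal was 47.6% of that of scPARP2 cells (log2 fold change -1.07, SE 0.10, limma adjusted p = 0.00103). Over all probe sets, the median SD among the 3 arrays was 0.142 in shPARP2 cells and 0.0753 in scPARP2 cells. Of the myoblast markers, 6 of 8 rose, where 12.4% of all genes rose and 11.6% fell. The mean log2 value of these markers ranged from 10.33 to 10.64 on the shPARP2 arrays and from 9.93 to 10.02 on the scPARP2 arrays. Myod1, the defining myogenic factor, did not pass (-0.20, adjusted p = 0.753). Markers of adipocytes, of bone and cartilage cells and of epithelial and endothelial cells had mean log2 values between 5.94 and 6.80 on the shPARP2 arrays and between 6.06 and 6.73 on the scPARP2 arrays, and none of these 16 genes passed limma's test, at an unadjusted p under 0.05 either. Of 5 leukocyte markers 1 fell, and of 6 fibroblast markers 2 rose and 2 fell. Among the fibroblast markers, Dpt rose 5.86-fold and Col1a1 2.86-fold, whereas Dcn fell 6.99-fold and Pdgfra 2.09-fold. Dcn, Dpt and Col1a1 differed more between the lines than any of the 40 genes. The part that a shift in cell state may have in the results below was not tested, and fewer cells in a state cannot be told apart from less RNA per cell.

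Of the 40 genes, 13 rose in shPARP2 cells, 3 fell and 24 did not pass limma's test (adjusted p under 0.05, Benjamini-Hochberg adjustment over all probe sets). These are 32.5% higher and 7.50% lower, where the background over all genes was 12.4% higher and 11.6% lower. The genes that rose lay mostly in the amino acid arm, 7 of 12, and in the group of transcription factors and feedback, 3 of 10. Among 13 ER folding and degradation genes only Herpud1 rose and none fell, and the 5 sensors split into 2 that rose, 2 that fell and 1 that did not pass. All 3 shPARP2 arrays lay above all 3 scPARP2 arrays for 19 of the 40 genes, where 20.7% of all genes did so, and below them for 8, where 21.4% of all genes did so. The median log2 fold change of the 40 genes was 0.06, and that of all genes was -0.02.

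**Figure D1:**
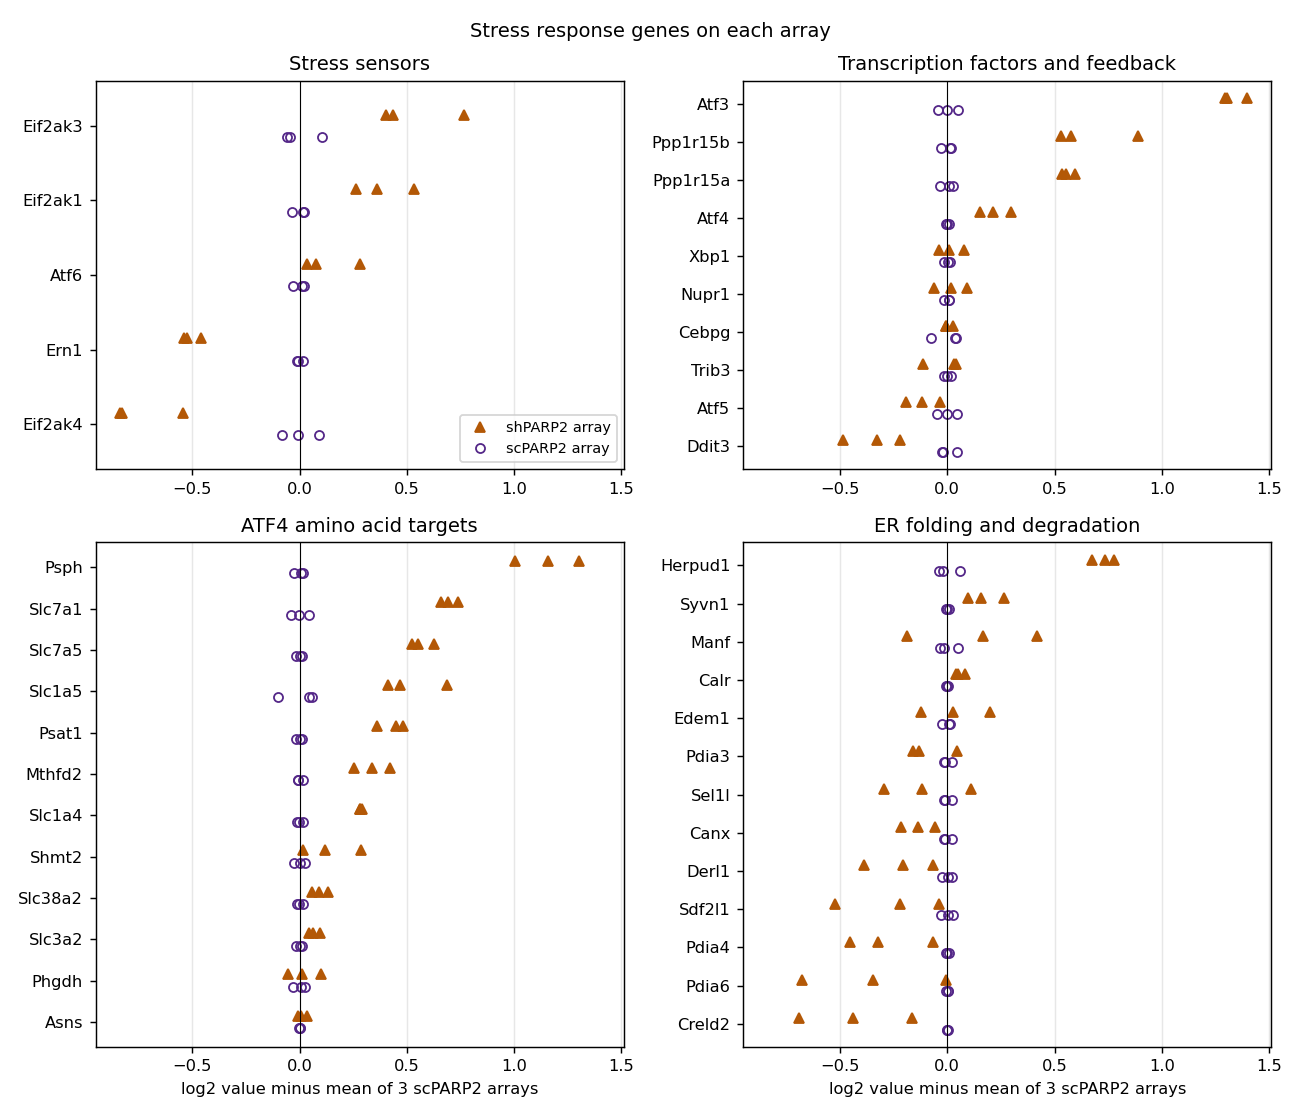
Log2 value of each gene on each array minus the gene's mean over the 3 scPARP2 arrays (horizontal axis), with filled triangles for the 3 shPARP2 arrays and open circles for the 3 scPARP2 arrays, in 4 panels by role. The triangles of all 12 amino acid genes average above the circles, whereas those of 8 of the 13 ER genes average below them and are spread more widely than their circles.

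The sensors diverged in direction. Eif2ak4, which encodes GCN2, the kinase that senses uncharged tRNA, had log2 values of 8.75, 8.76 and 9.05 in shPARP2 cells, against 9.68, 9.51 and 9.58 in scPARP2 cells. The groups were well apart, and the mRNA was 1.66-fold lower (log2 fold change -0.74, SE 0.10, adjusted p = 0.00452). Ern1, which encodes the ER kinase and nuclease IRE1α, had values of 11.03, 11.04 and 11.11 in shPARP2 cells and 11.59, 11.56 and 11.56 in scPARP2 cells. It was 1.42-fold lower (-0.51, SE 0.06, adjusted p = 0.00258), with a gap between the groups wider than the range within either.

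The mRNAs of the other kinases among the 5 sensors were higher. Eif2ak3, which encodes PERK, the ER kinase for eIF2, had values of 9.57, 9.54 and 9.91 in shPARP2 cells and 9.08, 9.24 and 9.10 in scPARP2 cells, with shPARP2 replicate 3 the highest. It rose 1.45-fold (0.53, SE 0.12, adjusted p = 0.0221). Eif2ak1, which encodes HRI, the kinase that senses haem and mitochondrial stress, had values of 9.67, 9.94 and 9.77 in shPARP2 cells and 9.43, 9.43 and 9.37 in scPARP2 cells. It rose 1.31-fold (0.38, SE 0.09, adjusted p = 0.0249), and its groups did not overlap either. Both calls were lost when any 1 of the scPARP2 arrays was left out. Without scPARP2 replicate 1, 2 or 3 the adjusted p of Eif2ak3 was 0.0864, 0.0524 and 0.0876, and that of Eif2ak1 was 0.0851, 0.0838 and 0.105.

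Atf6, the ER membrane sensor that is cleaved into a transcription factor, had values of 12.14, 12.09 and 12.34 in shPARP2 cells and 12.07, 12.03 and 12.08 in scPARP2 cells. The lowest shPARP2 value lay just above the highest scPARP2 value, and the difference of 0.13 did not pass (95% confidence interval -0.07 to 0.34, adjusted p = 0.377).

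Atf3, a stress-induced repressor and activator of the ATF family, showed the largest difference of the 40 genes. Its log2 values were 11.65, 11.65 and 11.75 in shPARP2 cells, against 10.40, 10.31 and 10.35 in scPARP2 cells. The mRNA rose 2.52-fold (1.33, SE 0.07, adjusted p = 0.000131), many times the range within either line. Ddit3, which encodes CHOP, the factor linked to death under lasting ER stress, went the other way, with 12.005, 11.84 and 12.11 in shPARP2 cells and 12.38, 12.31 and 12.30 in scPARP2 cells. It fell 1.27-fold (-0.34, SE 0.09, adjusted p = 0.0362), with no overlap between the groups. The call on Ddit3 was lost without scPARP2 replicate 1 (adjusted p = 0.133), 2 (0.110) or 3 (0.113) and without shPARP2 replicate 1 (0.0858).

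Atf4 mRNA had values of 10.79, 10.88 and 10.73 in shPARP2 cells and 10.58, 10.57 and 10.58 in scPARP2 cells. All shPARP2 arrays were higher, and the scPARP2 arrays were nearly equal, but the difference of 0.22 did not pass (SE 0.07, adjusted p = 0.0672). It did pass when limma weighted the arrays (adjusted p = 0.025) or used a trended and robust variance (0.0227). It also passed with adjustment over fewer probe sets, namely those above the lowest 40% of signals (0.0282) or those that name a single gene (0.0378), and with the mean of each gene's probe sets (0.0379). Atf4 did not pass after quantile normalization (0.104), after centring each array on its median (0.13) or with the replicate number as a block (0.152). Nor did it pass when any 1 array was left out (0.0501 to 0.206). Xbp1, whose spliced mRNA encodes the factor downstream of IRE1, had 12.58, 12.65 and 12.53 in shPARP2 cells and 12.56, 12.58 and 12.58 in scPARP2 cells. These values overlapped, with a difference of 0.02 (interval -0.14 to 0.17, adjusted p = 0.918), and the array's values here do not separate spliced from unspliced mRNA.

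The other transcription factors of the group did not pass. Differences were between -0.11 and 0.02 for Atf5, a factor translated like ATF4, Cebpg, a dimer partner of ATF4, Nupr1, a stress-induced chromatin protein, and Trib3, a pseudokinase that restrains ATF4 and CHOP. Their adjusted p ran from 0.368 for Atf5 to 0.977 for Cebpg, and the arrays of the lines overlapped for each of them. Their 95% confidence intervals lay within -0.28 to 0.18, so that a change of the size of Atf3 was outside them.

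Both subunits that direct protein phosphatase 1 to eIF2 rose. Ppp1r15a, which encodes the inducible subunit GADD34, had 11.19, 11.24 and 11.20 in shPARP2 cells, against 10.66, 10.62 and 10.67 in scPARP2 cells. It rose 1.48-fold (0.56, SE 0.06, adjusted p = 0.00175), with tight groups far apart. Ppp1r15b, which encodes the constitutive subunit CReP, had 10.40, 10.36 and 10.72 in shPARP2 cells and 9.84, 9.80 and 9.85 in scPARP2 cells. It rose 1.59-fold (0.67, SE 0.11, adjusted p = 0.00735). A second, dimmer probe set of Ppp1r15b gave 0.15 (SE 0.11, adjusted p = 0.432) with overlapping groups, so it had the same sign but did not pass. The mean of the gene's probe sets passed (0.41, adjusted p = 0.00351), and the difference between the probe sets was not tested.

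**Figure D2:**
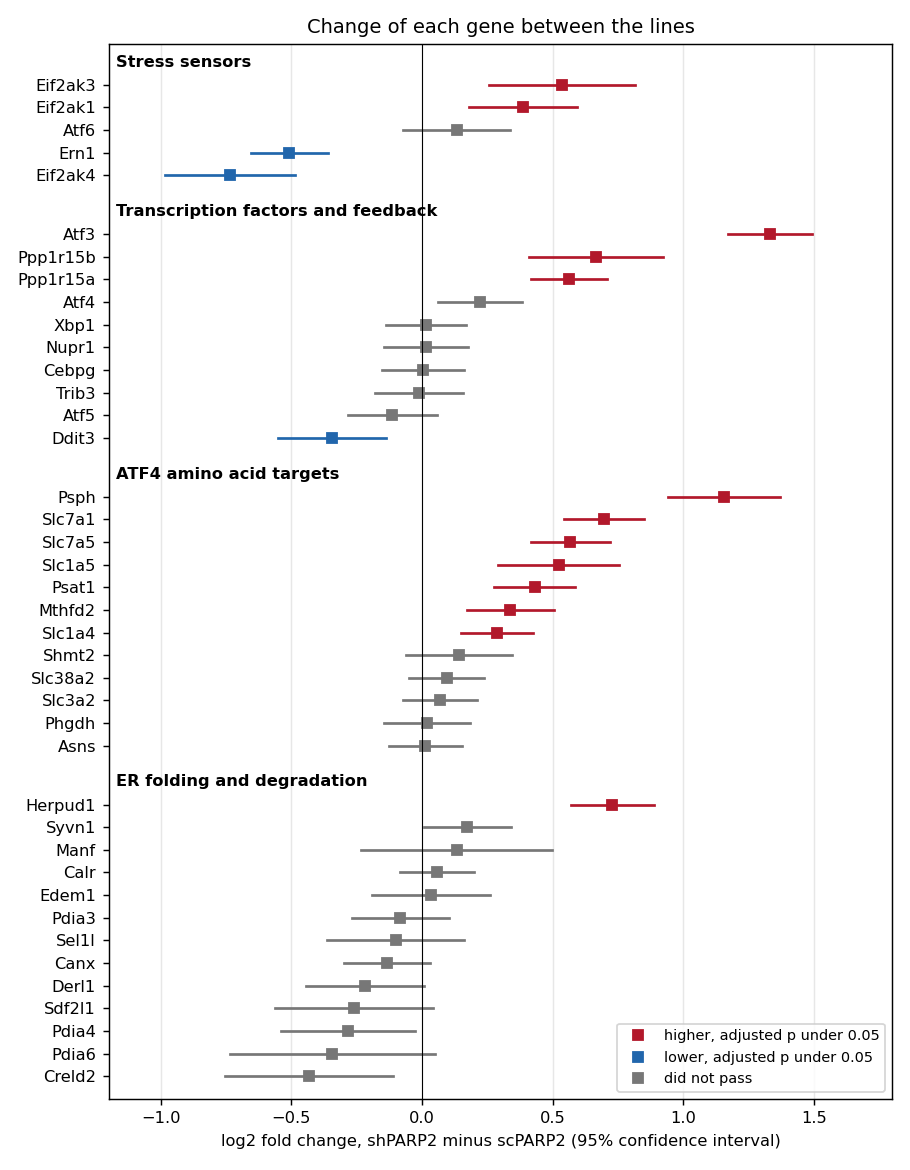
Log2 fold change of each gene, shPARP2 minus scPARP2 (horizontal axis), with its 95% confidence interval from limma, ordered by size within 4 groups of genes; red marks genes that rose, blue genes that fell and grey genes that did not pass. Atf3 at 1.33 and Psph at 1.15 lie farthest to the right, and Eif2ak4 at -0.74 farthest to the left.

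The genes through which ATF4 supplies amino acids had higher means in shPARP2 cells in every case. Of the 12, 7 rose (58.3%, beside 12.4% of all genes) and 5 did not pass. None fell (beside 11.6% of all genes), at an unadjusted p under 0.05 either. The median log2 fold change was 0.31, against -0.02 over all genes. All shPARP2 arrays lay above all scPARP2 arrays for 9 of the 12, where 20.7% of all genes did so.

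Of the enzymes, Psph, the phosphatase that releases serine in the last step of its synthesis, was the most changed. Its log2 values were 10.76, 10.61 and 10.91 in shPARP2 cells, against 9.58, 9.62 and 9.62 in scPARP2 cells. The gap was about 1 log2 unit on every array, a rise of 2.23-fold (1.15, SE 0.09, adjusted p = 0.000552). Psat1, the aminotransferase one step earlier, had 12.20, 12.29 and 12.33 in shPARP2 cells and 11.85, 11.85 and 11.83 in scPARP2 cells. It rose 1.35-fold (0.43, SE 0.06, adjusted p = 0.00576), and the groups did not overlap.

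Phgdh, which encodes the first enzyme of the same route, gave a difference of 0.02 (interval -0.15 to 0.18, adjusted p = 0.905) with overlapping groups. The 3 enzymes of serine synthesis thus had unequal values, and the differences between them were not tested. Mthfd2, a mitochondrial folate enzyme that uses the one-carbon unit of serine, rose 1.26-fold (0.34, SE 0.07, adjusted p = 0.0183). That call was lost without scPARP2 replicate 1 (adjusted p = 0.074), 2 (0.0801) or 3 (0.0864) and without shPARP2 replicate 1 (0.0532). Shmt2, which transfers that unit from serine in mitochondria, gave 0.14 (adjusted p = 0.345).

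Asns, which encodes asparagine synthetase, a widely used ATF4 target, is given by array although it was chosen after its values were seen. It had 12.91, 12.94 and 12.90 in shPARP2 cells and 12.90, 12.91 and 12.91 in scPARP2 cells. The groups overlapped, and the difference of 0.01 had an interval of -0.13 to 0.15 (adjusted p = 0.932).

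All 6 amino acid transporters had shPARP2 arrays above every scPARP2 array, where 20.7% of all genes did, and 4 of them rose, where 12.4% did. Slc7a1, the carrier of arginine and lysine, had 11.98, 11.95 and 12.03 in shPARP2 cells, against 11.29, 11.34 and 11.25 in scPARP2 cells. It rose 1.62-fold (0.70, SE 0.06, adjusted p = 0.000971), with little spread in either line. Slc7a5, the light chain of the exchanger LAT1 that imports leucine and other large neutral amino acids, had 13.16, 13.27 and 13.19 in shPARP2 cells and 12.65, 12.64 and 12.63 in scPARP2 cells. It rose 1.48-fold (0.57, SE 0.06, adjusted p = 0.00193), whereas its heavy chain partner Slc3a2 gave 0.07 (interval -0.07 to 0.21, adjusted p = 0.523).

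Slc1a5, the glutamine carrier ASCT2, had 10.48, 10.70 and 10.42 in shPARP2 cells and 10.05, 9.91 and 10.07 in scPARP2 cells. It rose 1.44-fold (0.52, SE 0.10, adjusted p = 0.0125). The call on Slc1a5 was lost without scPARP2 replicate 2, the lowest array (adjusted p = 0.056), and narrowly kept without scPARP2 replicate 1 (0.0459) or 3 (0.044). Slc1a4, a close relative of Slc1a5 that carries alanine and serine, rose 1.22-fold (0.29, SE 0.06, adjusted p = 0.0173). The call on Slc1a4 was lost without scPARP2 replicate 1 (adjusted p = 0.0758), 2 (0.0853) or 3 (0.0933). Slc38a2, the sodium-coupled carrier SNAT2 of small neutral amino acids, gave 0.09 (adjusted p = 0.381).

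Of the 13 genes for ER folding and degradation, 1 rose (7.69%, background 12.4%). Herpud1, an ER membrane protein of the degradation complex, had log2 values of 13.73, 13.63 and 13.69 in shPARP2 cells, against 13.01, 12.93 and 12.91 in scPARP2 cells. It rose 1.66-fold (0.73, SE 0.07, adjusted p = 0.00098), and the groups were far apart. None of the 13 fell by limma, where 2, Creld2 and Pdia4, were lower at an unadjusted p under 0.05 and Syvn1, beside Herpud1, was higher. The median log2 fold change was -0.10, with 5 differences above and 8 below 0, and whether it differs from that of the amino acid genes was not tested.

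Promoters of several of these genes hold the ER stress response element, the sequence known to be bound by cleaved ATF6 with NF-Y. It was searched as CCAAT, 9 bases of any kind and CCACG, on both strands, in RefSeq promoter windows from 250 bases before to 50 bases after each start (build GRCm38.p6). It stood in the windows of 37 of 27025 genes (0.137%). Of the 34 of the 40 genes with a window, 5 held it, all of them among the 11 ER genes with a window, and none was among the 10 amino acid genes. They are shown because they are ER genes whose values follow, with Hspa5, the main ER chaperone and the textbook example of the element, added after its values were seen. Each is written 5′ to 3′ on the strand of its gene, with the parts searched for in capitals, and CGTGG before ATTGG marks a match on the opposite strand. The matches are descriptions and not tested binding sites.
Calr, chr8:84847065-84847103, minus strand: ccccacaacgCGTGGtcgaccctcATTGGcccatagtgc
Canx, chr11:50325790-50325828, minus strand: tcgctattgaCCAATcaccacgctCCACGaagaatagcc
Pdia6, chr12:17266481-17266519, plus strand: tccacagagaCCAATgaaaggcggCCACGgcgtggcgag
Creld2, chr15:88819510-88819548, plus strand: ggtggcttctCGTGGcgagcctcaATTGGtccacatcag
Syvn1, chr19:6046522-6046560, plus strand: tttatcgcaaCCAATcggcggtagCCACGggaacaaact
Hspa5, chr2:34772015-34772053, plus strand: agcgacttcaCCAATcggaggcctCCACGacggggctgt

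None of these 5 genes with the element passed, and their log2 fold changes ran from -0.43 for Creld2 to 0.17 for Syvn1. Hspa5 had 14.00, 13.98 and 14.08 in shPARP2 cells and 13.94, 13.93 and 13.92 in scPARP2 cells, so that its groups did not overlap. Its difference of 0.10 did not pass (adjusted p = 0.389). In the wider lists counted below, the element also stood before Derl3 (-0.04), Hsp90b1 (-0.11), Ero1b (-0.53) and Dnajc3 (-0.15). None of these passed either, with the lowest adjusted p at 0.167 for Ero1b. Over the 21 measured genes with the element, 1 rose and 1 fell (4.76% each, beside 12.4% and 11.6% of all genes), with a median of -0.08.

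The values of the ER genes were spread widely among the shPARP2 samples and little among the scPARP2 samples. The median SD of the 13 was 0.162 in shPARP2 cells and 0.0198 in scPARP2 cells, where all genes had 0.125 and 0.0613 and the amino acid genes 0.0594 and 0.0138. In 11 of the 13 (84.6%), shPARP2 replicate 3 was the highest and replicate 2 the lowest of the line, an order found in 24.8% of all genes and in 3 of the 12 amino acid genes. The medians of the arrays had the same order, 7.13, 7.04 and 7.18 for shPARP2 replicates 1, 2 and 3, against 7.14, 7.11 and 7.15 for scPARP2 replicates 1, 2 and 3. After each array was centred on its median, 8 of the 13 ER genes (61.5%) kept the order, where 10.3% of all genes had it. The part of RNA quality or hybridization in this order was not tested, and no p was computed because the order was noticed in these values.

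**Figure D3:**
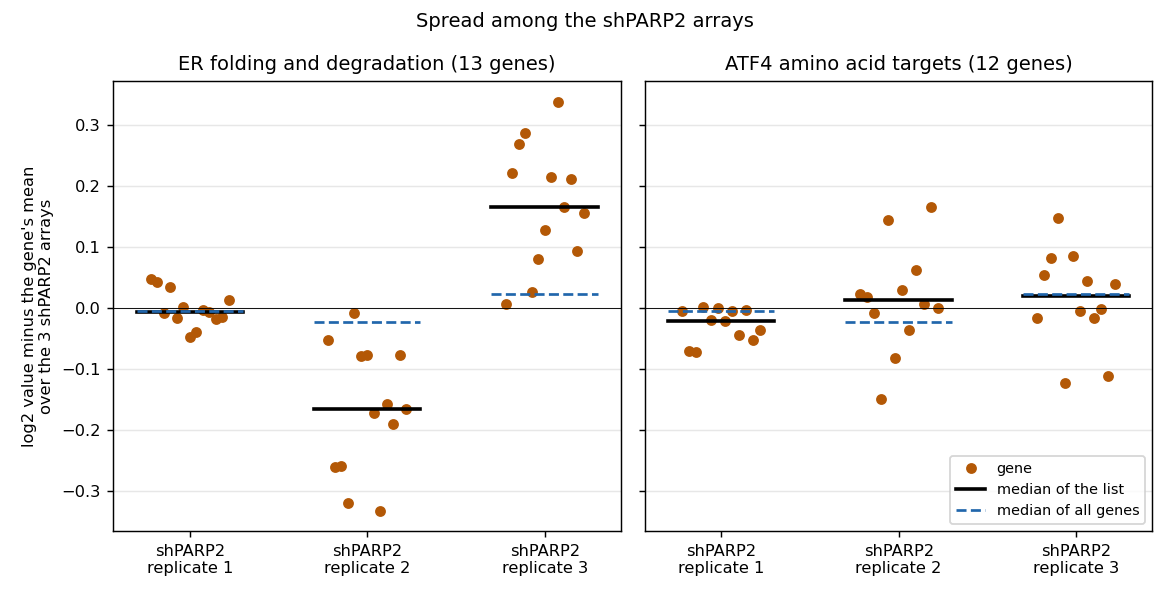
Log2 value of each gene on each shPARP2 array minus the gene's mean over the 3 shPARP2 arrays (vertical axis), for the 13 ER genes (left) and the 12 amino acid genes (right); points are genes, black lines the medians of the list and dashed blue lines the medians of all genes. The median of the ER genes is lowest on replicate 2 at -0.17 and highest on replicate 3 at 0.17, whereas that of the amino acid genes stays between -0.02 and 0.02.

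This spread bears on the ER genes with lower means. Creld2, an ER chaperone with disulfide isomerase activity, and Pdia6, a disulfide isomerase, are given by array as the extremes, chosen after their values were seen. Creld2 had 12.74, 12.48 and 13.01 in shPARP2 cells, against 13.17, 13.18 and 13.17 in scPARP2 cells. The scPARP2 arrays were nearly equal and all shPARP2 arrays lay below them, but the difference of -0.43 did not pass (SE 0.13, adjusted p = 0.0741). Creld2 did pass as lower with array weights (adjusted p = 0.0116), after centring (0.0435), with a trended and robust variance (0.0405), without dim probe sets (0.0376), with single-gene probe sets only (0.0308) and with the mean of probe sets (0.0299). It did not pass after quantile normalization (0.114) or with the replicate number as a block (0.0979). Nor did it pass without scPARP2 replicate 1 (0.182), 2 (0.185) or 3 (0.185) or without shPARP2 replicate 1 (0.166). Pdia6 had 12.26, 11.93 and 12.61 in shPARP2 cells and 12.62, 12.61 and 12.61 in scPARP2 cells, with shPARP2 replicate 3 at the level of the scPARP2 arrays (-0.34, SE 0.16, adjusted p = 0.227). Without shPARP2 replicate 3, the highest of the line for these genes, Creld2 (-0.57, adjusted p = 0.0152), Pdia6 (-0.51, adjusted p = 0.0336) and the disulfide isomerase Pdia4 (-0.39, adjusted p = 0.0197) passed as lower. Without shPARP2 replicate 2, the lowest of the line, Creld2 (-0.30, adjusted p = 0.0913), Pdia6 (-0.18, adjusted p = 0.355) and Pdia4 (-0.19, adjusted p = 0.218) did not pass. With all arrays Pdia4 gave -0.28 (adjusted p = 0.133, or 0.0249 with array weights), and its dimmer probe set gave -0.15 (adjusted p = 0.736).

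The remaining ER genes did not pass. Among the chaperones and folding factors, the lectin chaperones Calr and Canx gave 0.06 and -0.14, the isomerase Pdia3 -0.08, the co-chaperone Sdf2l1 -0.26, and Manf, a secreted factor of the ER lumen, 0.13. Among the degradation genes, the ubiquitin ligase Syvn1 gave 0.17 and its partner Sel1l -0.10, the membrane channel protein Derl1 -0.22 and the mannosidase-like Edem1 0.04. Adjusted p of these 9 genes ran from 0.156 for Syvn1 to 0.862 for Edem1. Without shPARP2 replicate 3 the difference of Manf was -0.011 and that of Edem1 was -0.047, so the sign of these 2 rested on that array.

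A further 6 lists of the same pathways were counted beside the 40 genes. Of the cytosolic aminoacyl-tRNA synthetases, which charge tRNAs and many of which ATF4 switches on, 9 of 18 measured genes rose and 2 fell (11.1%), with a median of 0.25, where 12.4% of all genes rose and 11.6% fell. Farsa, the alpha subunit of the phenylalanine enzyme, had 10.99, 11.02 and 11.10 in shPARP2 cells and 9.99, 10.03 and 10.00 in scPARP2 cells (1.03, adjusted p = 0.000264). Hars, the histidine enzyme, rose by 0.97 (adjusted p = 0.000823) and Tars, the threonine enzyme, by 0.72 (adjusted p = 0.00131).

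Of other ATF4 targets, 6 of 22 rose (27.3%, beside 12.4% of all genes) and 1 fell (4.55%, beside 11.6%), with a median of 0.09. Fgf21, a hormone released under mitochondrial and amino acid stress in muscle, had the largest difference of these lists, with 10.24, 10.40 and 10.26 in shPARP2 cells, against 8.26, 8.23 and 8.27 in scPARP2 cells. The groups were about 2 log2 units apart, a rise of 4.14-fold (2.05, SE 0.07, adjusted p = 3.62e-05). Gpt2, the mitochondrial alanine aminotransferase, rose 2.36-fold (1.24, adjusted p = 0.000265), and Klhl24, an adaptor of a ubiquitin ligase, fell 1.61-fold (-0.69, adjusted p = 0.00252).

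**Figure D4:**
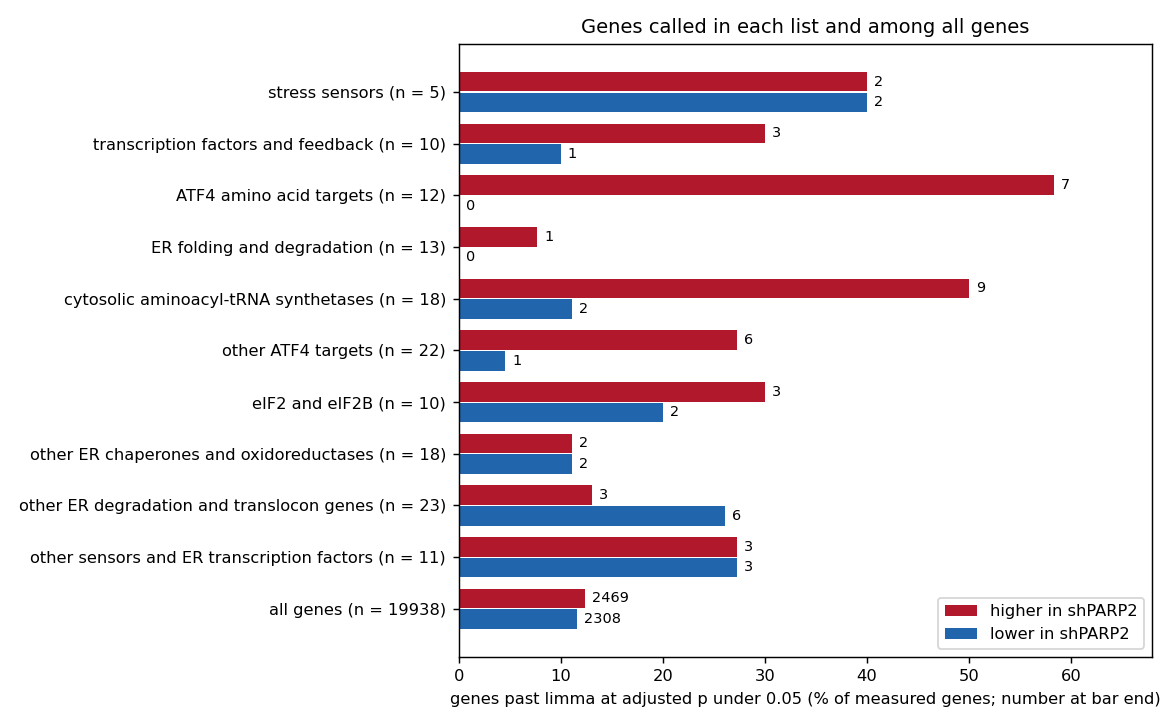
Percent of measured genes in each list that rose (red) or fell (blue) in shPARP2 cells by limma at an adjusted p under 0.05 (horizontal axis, number of genes at the end of each bar), for the 4 groups of the 40 genes, the 6 wider lists and all genes. The amino acid genes (58.3%) and tRNA synthetases (9 of 18) have the longest red bars, beside 12.4% of all genes.

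The C/EBP-ATF response element, the composite site through which ATF4 acts, was searched only in the form TGATGNAAT, on both strands in the same windows. Other forms of the site, and sequence outside the windows, were not searched. A gene without a match may therefore still hold the site. The form searched stood in 293 genes (1.08%), of which 1, Nupr1, was among the 40 genes, and 128 of the genes with it were measured. Of these 15 rose (11.7%) and 8 fell (6.25%), with a median of 0.02, where 12.4% of all genes rose and 11.6% fell. The windows of Nupr1 and of the wider-list genes Fgf21 and Gars are shown, because the same letters stand before genes with unequal differences. Gars, the glycine tRNA synthetase, was named after its values were seen. In the lists examined the element also stood in the window of Iars, the isoleucine tRNA synthetase, after its start, where no sequence is shown. Capitals mark the match, which lies on the opposite strand in all of them, with the free base in lower case.
Fgf21, chr7:45615612-45615640, minus strand: agacccccccATTgCATCAtccgtccagg
Nupr1, chr7:126625563-126625591, minus strand: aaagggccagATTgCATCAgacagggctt
Gars, chr6:55037960-55037988, plus strand: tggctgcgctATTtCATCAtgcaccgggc

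The log2 fold changes of these genes were 2.05 for Fgf21, 0.01 for Nupr1, 0.29 for Gars (adjusted p = 0.0172) and 0.02 for Iars (adjusted p = 0.895). Another motif, TGACGTG, known from cAMP and unfolded protein response promoters, stood in 601 genes (2.22%) and in none of the 40. Of the 407 measured genes with it, 80 rose (19.7%) and 51 fell (12.5%), beside 12.4% and 11.6% of all genes. Their median was 0.0021, and whether these shares differ was not tested. In the wider lists it stood in the windows of Eprs, Hspa5, Ube2j1, Vcp, Jdp2, Txndc5, Txndc11 and Vegfa, of which only Txndc11 passed (-0.55, adjusted p = 0.0027).

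Of the list of translation factors eIF2 and eIF2B and related proteins, 3 of 10 rose and 2 fell, with a median of 0.09, beside 12.4% of all genes higher and 11.6% lower. Eif2s2, the beta subunit of eIF2, rose by 0.55 (adjusted p = 0.00351) on the brighter of its 2 single-gene probe sets, and the dimmer one is not given here. Eif2b1, a subunit of the exchange factor of eIF2, rose by 0.51 (adjusted p = 0.00436). Eif2a, which despite its name is no subunit of eIF2 but a separate factor that delivers initiator tRNA, had a lower mean (-0.56, adjusted p = 0.00427). Of other sensors and ER transcription factors, 3 of 11 rose and 3 fell (27.3% each), with a median of -0.17. Creb3l1, an ER membrane factor linked to collagen secretion, rose by 0.93 (adjusted p = 0.00228). Mbtps1, the protease that cleaves ATF6, changed by -0.49 (adjusted p = 0.00354) and Tmbim6, an inhibitor of ER-stress death that restrains IRE1, by -0.43 (adjusted p = 0.00746).

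The wider ER lists had medians near 0. Of other ER chaperones and oxidoreductases, 2 of 18 rose and 2 fell (11.1% each, near the 12.4% and 11.6% of all genes), with a median of 0.02. Fkbp14, a collagen-folding isomerase, rose by 0.86 (adjusted p = 0.00146), the oxidase Ero1a rose by 0.42 (adjusted p = 0.00645), and the thioredoxin-like Txndc11 changed by -0.55 (adjusted p = 0.0027). Of other ER degradation and translocon genes, 3 of 23 rose (13.04%, beside 12.4% of all genes) and 6 fell (26.1%, beside 11.6%), with a median of 0.0042. The ubiquitin-conjugating enzyme Ube2g2 rose by 0.90 (adjusted p = 0.000537), and the lectin Erlec1 changed by -0.71 (adjusted p = 0.0021). Selenos, a selenoprotein of the degradation complex, rose by 0.53 (adjusted p = 0.0437), but the call was lost without scPARP2 replicate 1 (0.116), 2 (0.133) or 3 (0.127) and without shPARP2 replicate 1 (0.114) or 3 (0.0544). The order of the shPARP2 arrays seen in the 13 ER genes was also the order of 12 of the 18 chaperones (66.7%) and 13 of the 23 degradation genes (56.5%), and after centring of 33.3% and 21.7%, beside 10.3% of all genes.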

How the data were processed

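The deposited table holds log2 values of 35556 probe sets on 6 arrays, which the authors made with RMA per the submitters' processing notes with version, library files and annotation release not given in the sources used here. No column was left out. Probe sets were named from the platform annotation, an older release, in which 21789 name 1 gene, 1621 name several and 12146 are not named here. Each gene took its single-gene probe set with the highest mean.

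The 3 shPARP2 arrays were compared with the 3 scPARP2 arrays by lmFit and eBayes of limma 3.58.1 (R 4.3.3) without covariates, p-values were adjusted over all probe sets after Benjamini and Hochberg, and the threshold was 0.05. Fits were tested on simulated data with the same spread in both lines, so that test does not cover the unequal spread of these arrays. An array gives no read depth, and the number of arrays limits the precision. Values were set out per array for the members past the test with the 12 largest differences, the sensors, Atf4, Ddit3 and Xbp1, and up to 3 genes past the test with the largest differences were named from each wider list. Members, lists and tests were chosen with earlier results of these data known. Alternatives were other normalizations, filters, variance models and thresholds, a replicate block, another rule for probe sets and leaving out each array. Promoters came from the RefSeq table (GRCm38.p6, 27025 genes), and 34 of the 40 genes matched. Figures were drawn with matplotlib 3.10.9.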

Additional observations from a re-analysis of the deposited data

How the results depend on the processing

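Over all genes, 2469 rose and 2308 fell; an adjusted p under 0.01 left 1352 and 1228, a minimum of 1.5-fold left 1051 and 961, and leaving out an array gave 1390 to 2448 higher and 1281 to 2721 lower. Of the 40 genes, 13 rose, against 8 with a replicate block, 8 at 0.01, 5 at 1.5-fold and 8 to 13 without an array, and 3 fell, against 5 with array weights, 1 at 1.5-fold and 2 to 6 without an array, the 6 without shPARP2 replicate 3. Sensors that rose numbered 2, against 0 with the block, at 0.01 and at 1.5-fold and 0 to 2 without an array; those that fell numbered 2, against 1 at 1.5-fold. Ddit3, the 1 factor that fell, was not called with the block, at 0.01 or at 1.5-fold (0 each; 0 to 1 without an array). Amino acid genes that rose numbered 7, against 4 with the block, 4 at 0.01, 2 at 1.5-fold and 4 to 7 without an array. ER genes that fell numbered 0, against 2 with array weights, 1 each after centring, without dim probe sets, with the mean of probe sets, with single-gene probe sets only and with trended robust variance, and 0 to 3 without an array. In the wider lists, tRNA synthetases called numbered 11 (block 6, 0.01 5, 1.5-fold 3, without an array 5 to 14), other ATF4 targets 7 (array weights 11, 1.5-fold 4), eIF2 and eIF2B 5 (0.01 3, 1.5-fold 0, without an array 3 to 7), ER chaperones 4 (array weights 7, trended robust variance 7, 1.5-fold 1), ER degradation genes 9 (block 5, 0.01 3, 1.5-fold 2, without an array 3 to 8) and other sensors 6 (centring 3, block 3, 0.01 3, 1.5-fold 1, without an array 3 to 5). Stricter thresholds lower counts by construction; the other causes were not tested. The median of the amino acid genes stayed at 0.29 to 0.33 and that of the ER genes at -0.17 to -0.04 without an array.

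Some differences near 0, none of them called, changed sign. Under quantile normalization these were Cebpg (-0.024), Nupr1 (-0.023) and Phgdh (-0.011), with array weights Phgdh (-0.016) and Trib3 (0.020), and after centring Trib3 (0.0070). Without an array Cebpg ranged from -0.032 (without scPARP2 replicate 3) to 0.024, Nupr1 from -0.023 (without shPARP2 replicate 2) to 0.054, Xbp1 from -0.015 (without shPARP2 replicate 2) to 0.042, Trib3 from -0.040 to 0.037 (without shPARP2 replicate 2) and Phgdh from -0.021 (without shPARP2 replicate 3) to 0.055. Without shPARP2 replicate 3 Manf was -0.011 and Edem1 -0.047, where their highest values without an array were 0.29 and 0.11, and Cebpg was -0.0072 without shPARP2 replicate 1.

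Deviations of same-numbered arrays correlated at -0.05, 0.09 and 0.01. These values do not settle whether the replicate numbers pair the samples, and no label tells. With the replicate number as a block, 6 of the 16 called genes of the 40 missed the threshold: Eif2ak1 (adjusted p = 0.0573), Eif2ak3 (0.0557), Ddit3 (0.0761), Mthfd2 (0.0594), Slc1a4 (0.0729) and Slc1a5 (0.0507). All 16 kept their calls under quantile normalization, centring, array weights, trended robust variance, without dim probe sets, with single-gene probe sets and with the mean of probe sets. With 3 arrays a line and a larger spread among the shPARP2 arrays, small differences could not be resolved.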
